A study of Mus musculus with 8 samples.

Results

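Kat8 and 9 partner genes of its MSL and NSL complexes were described across single bone marrow cells of Mof -/+ and wild type mice. Mof is the older name of Kat8. The 10 genes were taken by name (Kat8, Msl1, Msl2, Msl3, Kansl1, Kansl2, Kansl3, Mcrs1, Phf20 and Wdr5), and all 10 were present among the 19879 gene names of the count tables. The study made 8 CEL-Seq2 libraries, 2 in each of 4 groups, namely plate2 libraries of Mof -/+ and of wild type mice and HSC libraries of Mof -/+ and of wild type mice. HSC stands for haematopoietic stem cells, which the study sorted as LSK cells lacking CD34, Flt3 and CD48 and carrying CD150, and plate2 has no gate in its labels, while the design text lists erythroid, myeloid and megakaryocyte progenitor gates besides HSC. Genotype is the only difference named between the groups of a plate set, and neither the kind of Mof allele, nor the age of the mice, nor the number of animals is given in the sources used here. The mice are called heterozygous in the design text. Nothing in the labels says that the 2 libraries of a group came from separate mice, so p-values measure only how far these libraries differ, possibly for technical reasons.

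KAT8 (MOF) is a lysine acetyltransferase known above all for acetylating lysine 16 of histone H4, a mark of open chromatin. In the MSL complex it is held by the scaffold MSL1, together with MSL2, a RING-type ubiquitin ligase, and MSL3, a chromodomain protein. In the NSL complex it is held by the scaffold KANSL1, together with KANSL2, KANSL3, the forkhead-associated domain protein MCRS1, the Tudor and PHD finger protein PHF20 and the WD-repeat protein WDR5, and this complex is known for binding promoters of widely used genes. The names come from Drosophila, in which MSL proteins serve dosage compensation of the male X chromosome. WDR5 also belongs to the SET1 and MLL methyltransferase complexes, so its transcripts are not a measure of the NSL complex alone.

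In GRCm38, Kat8 spans bases 127912516 to 127925837 of chromosome 7, and Msl1 spans bases 98795516 to 98807859 of chromosome 11, both on the plus strand. Their promoter windows (RefSeq, GRCm38.p6, 250 bases before to 50 bases after the annotated start nearest to the gene's start) are shown because Kat8 is the gene altered in the mice and Msl1 is the partner with the most transcripts and with a difference between plate sets that passed in each alternative run. Capitals mark matches to CCGGAA on either strand, a core motif of ETS factors.
Kat8, chr7:127912267-127912566, plus strand: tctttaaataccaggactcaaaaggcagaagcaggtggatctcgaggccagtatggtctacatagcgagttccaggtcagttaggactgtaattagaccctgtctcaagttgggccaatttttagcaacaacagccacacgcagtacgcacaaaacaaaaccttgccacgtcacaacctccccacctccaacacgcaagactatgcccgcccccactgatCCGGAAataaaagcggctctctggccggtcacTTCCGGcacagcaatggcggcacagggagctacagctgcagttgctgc
Msl1, chr11:98795266-98795565, plus strand: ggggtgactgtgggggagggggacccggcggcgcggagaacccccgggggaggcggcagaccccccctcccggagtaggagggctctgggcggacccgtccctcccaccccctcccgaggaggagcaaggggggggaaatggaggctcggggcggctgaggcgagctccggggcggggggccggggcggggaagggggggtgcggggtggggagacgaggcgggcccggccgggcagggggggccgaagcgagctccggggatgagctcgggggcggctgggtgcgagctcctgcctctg
The Kat8 window held 2 matches, which began 30 bases before and 2 bases after the start. The Msl1 window held none and was richer in G and C (79.3%, against 53.0% for Kat8). Of the 10 genes 3 (Kat8, Kansl3 and Mcrs1) held the motif, which stood in 14.9% of all 32851 windows of the table. A match is a run of letters and not a bound site.

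Of 1536 barcodes, 436 held 1000 or more transcripts of named genes and were kept as wells. The plate2 libraries kept 94 Mof -/+ and 110 wild type wells with medians of 9820 and 12531 transcripts per well in the Mof -/+ libraries and 8727 and 8082 in the wild type ones. The HSC libraries kept 136 Mof -/+ and 96 wild type wells with medians of 2923 and 2979 in Mof -/+ and 1601 and 1567 in wild type, so depth differed between plate sets and, among HSC wells, between genotypes. Library totals ran from 424794 to 734550 transcripts in plate2 and from 99312 to 244299 in HSC. A plate2 well with at least 3 transcripts of Car1, a carbonic anhydrase gene of erythroid progenitors, was called erythroid, which gave 79 erythroid wells (41 Mof -/+ and 38 wild type) and 125 other plate2 wells (53 and 72). In each library's erythroid wells all 10 other erythroid markers were found, at a summed 3453 to 4982 CPM (transcripts per 1000000 transcripts of the library). In the other plate2 wells 5 to 10 of the markers were found, at a summed 384 to 1537 CPM. In the HSC libraries 7 to 10 of them were found, at a summed 925 to 1945 CPM. Stem cell markers summed to 44.0 to 133 CPM in erythroid wells, to 762 to 1434 in other plate2 wells and to 2662 to 3611 in HSC wells, where 8 or 9 of the 9 were found. Among the 232 HSC wells 10 held at least 3 Car1 transcripts and 6 held at least 10 transcripts of mature neutrophil genes, 15 wells in all. Mature neutrophil markers (8 genes) ran in the HSC libraries from 0 in a wild type library to 5249 CPM in the other.

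Kat8 had the lowest mean level of the 10 genes. CEL-Seq2 counts 1 end per molecule, so levels need no correction for gene length, although genes can differ in how well their ends are captured. Over the 8 libraries Msl1 averaged 192 ± 93.9 CPM, Msl2 96.6 ± 14.4, Phf20 82.6 ± 22.9 and Wdr5 71.0 ± 9.82 CPM (SD, n = 8). Below these came Kansl1 at 58.3 ± 31.1, Mcrs1 at 57.0 ± 22.5, Kansl2 at 51.8 ± 17.9, Msl3 at 36.0 ± 11.8 and Kansl3 at 29.2 ± 11.7 CPM (SD, n = 8). Kat8 stood at 12.3 ± 4.95 CPM (SD, n = 8). Each neighbouring pair in this order from Msl2 down to Kansl3 differed by less than the larger of its SDs. Kat8 is separated from Kansl3 by more than either SD, yet the highest Kat8 library (19.4 CPM) overlapped the lowest Kansl3 library (14.9 CPM).

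**Figure D1:**
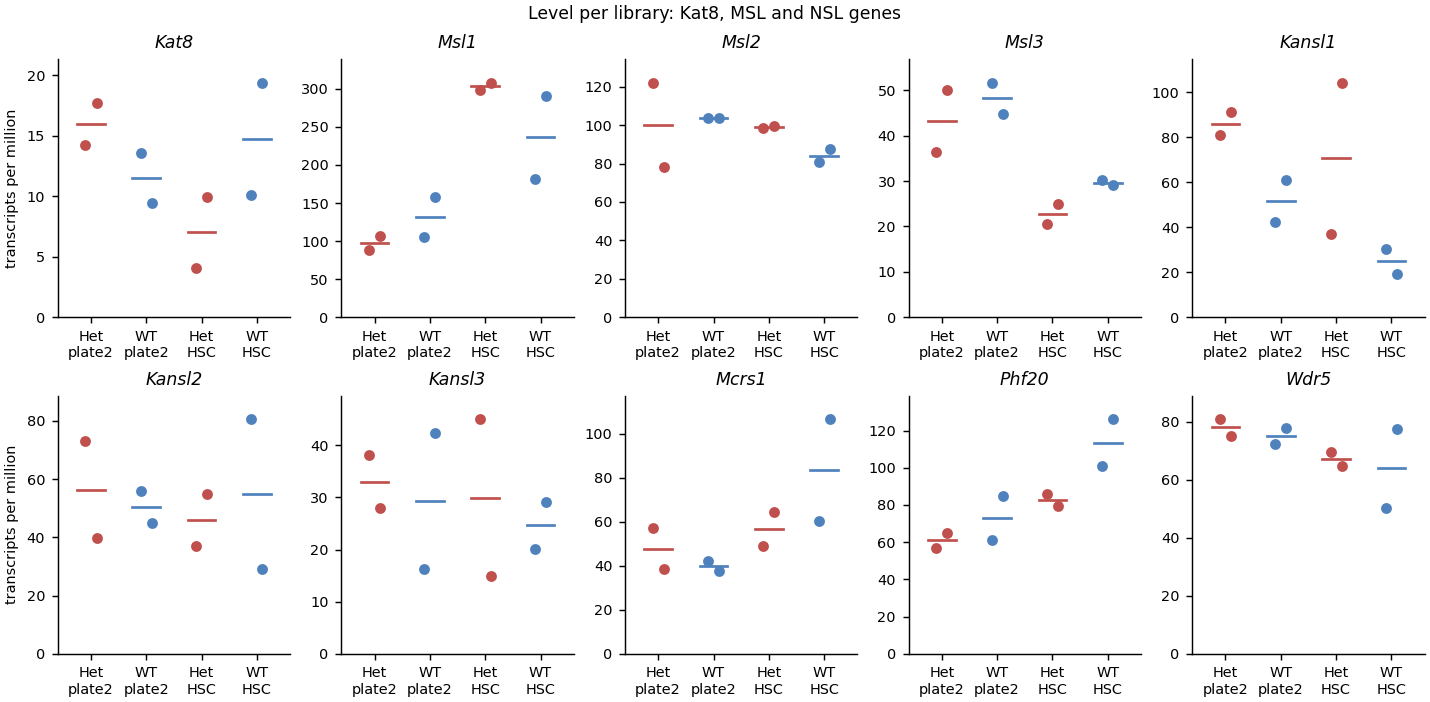
Each panel shows a gene, with the level of each library on the y axis in CPM and the 4 groups on the x axis (Het, Mof -/+; WT, wild type); points are libraries and bars are means of 2. Msl1 is lower in all 4 plate2 libraries than in all 4 HSC libraries, and Kat8 lies between 4.09 and 19.4 in every library.

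In single wells most members were missing most of the time. Kat8, the catalytic subunit, was caught 41 times in 36 of 436 wells (8.26%, exact Clopper-Pearson 95% interval 5.85% to 11.2%), with 1 transcript in 31 of these wells and 2 in the other 5. The scaffold gene Msl1 was caught 455 times in 204 wells, Msl2 311 times in 154, Wdr5 231 times in 122 and Phf20 221 times in 142. Kansl1 had 205 transcripts in 118 wells, Kansl2 164 in 99, Mcrs1 151 in 103, Msl3 130 in 83 and Kansl3 92 in 68 wells. No well held more than 10 transcripts of any of the genes. Such intervals cover counting error only.

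Detection followed the depth of the well. Kat8 was found in 2.18% of wells of 1000 to 5000 transcripts, in 12.4% of those of 5000 to 15000 and in 30.4% of the 56 wells above that. The wells with Kat8 had a median of 14521 transcripts and those without it 3043. Msl2 climbed over the same depths through 18.9% and 50.5% to 87.5%, and Kansl3, the next lowest gene, through 6.55% and 24.8% to 42.9%. With every well thinned to 1000 transcripts, Kat8 was left in 8 of 436 wells (1.83%) and Msl1 in 72 (16.5%).

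**Figure D2:**
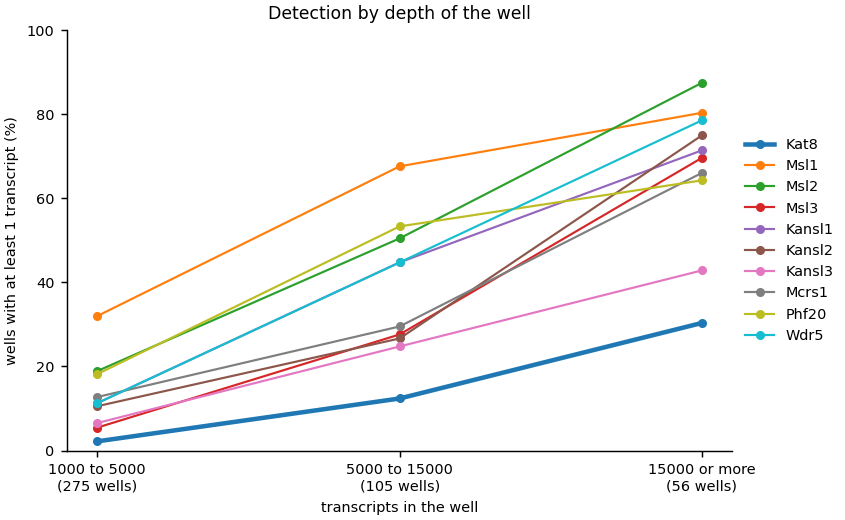
The share of wells with at least 1 transcript of each gene is drawn in percent against the depth of the well in 3 bins, with the number of wells under each bin. Every line climbs with depth, and Kat8 is the lowest in each bin, at 2.18%, 12.4% and 30.4%.

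How far counts scatter over wells was measured by Pearson chi-square per degree of freedom (424 degrees of freedom), given the depth of each well and the level in its library and kind of well, where counting error alone gives 1. The highest of the 10 values were those of Msl1 (1.71, with 232 empty wells against 202.7 in a Poisson model of the same means) and Msl2 (1.54, with 282 against 269.8). The other 7 partner genes lay between 0.901 for Msl3 and 1.25 for Kansl3. Kat8, with 41 transcripts in 436 wells, stood at 0.953, but at so few transcripts the measure can show little of any spread between cells.

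Whether Mof -/+ wells held less Kat8 was the first question the genotypes pose, and at this depth no difference was detectable. The plate2 libraries held 9 and 12 Kat8 transcripts in Mof -/+ mice (14.3 and 17.7 CPM), against 10 and 4 in wild type mice (13.6 and 9.42 CPM). Both Mof -/+ plate2 libraries stood above both wild type ones. The HSC libraries held 1 and 2 transcripts in Mof -/+ mice (4.09 and 9.94 CPM), against 1 and 2 in wild type mice (10.1 and 19.4 CPM), 3 in each genotype, and at such counts no fold is given. Kat8 was under the low-count filter, and a fit without that filter put plate2 at a log2 fold change of 0.31 ± 0.65 (SE over 2 libraries per genotype, 95% interval -0.96 to 1.59), edgeR adjusted p = 0.954. The same fit gave 0.03 ± 0.58 over plate2 and HSC together (4 libraries per genotype, 95% interval -1.11 to 1.17, edgeR adjusted p = 0.988). A log2 fold change of -1 lies inside the interval over both sets and just outside that of plate2. Without Mof -/+ plate2 library 2 the value over both sets was -0.19 and without wild type plate2 library 2 it was -0.16. Whether the counted 3′ end lies in the altered part of the allele is not given in the sources used here, so these counts do not check the genotype labels.

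Wells with Kat8 were 18 of 94 in Mof -/+ plate2 and 12 of 110 in wild type plate2 (19.1% and 10.9%). In HSC they were 3 of 136 in Mof -/+ and 3 of 96 in wild type (2.21% and 3.12%). Averaged over libraries and then over plate sets, the share was 10.7% in Mof -/+ and 6.72% in wild type libraries, a difference of 4.01 percentage points that an exact two-sided permutation of genotype labels within plate sets put at p = 0.444 (36 regroupings, smallest possible p 0.0556). Thinned to 1000 transcripts per well, the shares were 2.52% and 1.60%. In erythroid wells Kat8 was found in 11 of 41 Mof -/+ and 4 of 38 wild type wells, at 16.3 and 15.1 CPM in the Mof -/+ libraries and 8.93 and 11 CPM in the wild type ones. Both Mof -/+ libraries were the higher there, on 12 transcripts in Mof -/+ against 5 in wild type. Their wells were also deeper, with medians of 20364 and 14034 transcripts in the Mof -/+ libraries against 13997 and 7507 in the wild type ones, and after thinning to 1000 transcripts 3 of 41 Mof -/+ and 0 of 38 wild type erythroid wells held Kat8. As a level, the fit without the filter gave 0.62 ± 0.86 (95% interval -1.07 to 2.30, edgeR adjusted p = 1.0). In other plate2 wells each genotype had 9 transcripts, at 11.4 and 21.4 CPM in Mof -/+ against 17.6 and 8.23 CPM in wild type.

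None of the 9 partner genes that passed the filter differed between the genotypes at an adjusted p under 0.05 (edgeR quasi-likelihood test, Benjamini-Hochberg adjusted over all genes tested). The share of all genes that passed was 0.553% in plate2 (0.0299% higher and 0.523% lower in Mof -/+), 0.0149% in HSC and 0.135% over both sets (0.0149% higher and 0.12% lower), so calls were rare across all genes as well. At an unadjusted p under 0.05, 338 genes stood in plate2, 722 in HSC and 399 over both sets, none of the 9 in plate2 or HSC and 1 of them over both sets. With DESeq2, 25 genes passed in plate2, 19 in HSC and 9 over both sets, again without a member. The genotype effects of plate2 and HSC were compared directly, and 0% of 6690 genes passed, with 607 at an unadjusted p under 0.05 and none with DESeq2. The log2 fold changes of the 9 genes ran in plate2 from -0.54 for Msl1 to 0.64 for Kansl1 and over both sets from -0.43 for Phf20 to 0.79 for Kansl1, with standard errors over both sets of 0.25 to 0.44. The median over the 9 genes was -0.09 over both sets, against -0.01 over all genes. Over both sets every interval reached neither -1 nor 1 except those of Msl3 (-1.03 to 0.37), Kansl1 and Kansl3 (-0.75 to 1.07).

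Kansl1, the scaffold gene of the NSL complex, was the only member at an unadjusted p under 0.05 over both sets, and it did not pass the adjusted test. In plate2 it stood at 80.9 and 91.4 CPM in Mof -/+ libraries, against 42.2 and 61.2 CPM in wild type libraries. In HSC it stood at 36.8 and 104 CPM in Mof -/+ libraries, against 30.2 and 19.4 CPM in wild type libraries. All 4 Mof -/+ libraries were above the wild type libraries of their set, although the Mof -/+ HSC pair lay far apart and the wild type HSC libraries rested on 3 and 2 transcripts. Over both sets Kansl1 stood at a log2 fold change of 0.79 ± 0.34 (SE over 4 libraries per genotype, 95% interval 0.09 to 1.5), with an unadjusted p of 0.0272 and an edgeR adjusted p of 0.774. With DESeq2, 0 of the 9 members stood at an unadjusted p under 0.05 over both sets. The same held in edgeR without Mof -/+ plate2 library 2 or without wild type plate2 library 1. In erythroid wells, where Kansl1 stood at 92.3 and 93.1 CPM in Mof -/+ against 26.8 and 60.5 CPM in wild type, it was 1.15 ± 0.41 (n = 2 per genotype, 95% interval 0.29 to 2.0, edgeR adjusted p = 0.685). There 0.0818% of all genes passed (0.0327% higher and 0.0491% lower in Mof -/+), with none of the 9 members tested. Without wild type library 1 the erythroid value was 0.52 (edgeR adjusted p = 0.861), and without wild type library 2 it was 1.74 (adjusted p = 0.215). In other plate2 wells it was 0.21 ± 0.38 (n = 2 per genotype, edgeR adjusted p = 0.916), where Mof -/+ libraries had 64.9 and 89.0 CPM and wild type ones 55.2 and 61.7 CPM. Among the 9 members tested in erythroid wells, 4 log2 fold changes were positive and 5 negative, down to -0.67 for Msl1. Of these 9 members, 2 stood at an unadjusted p under 0.05 in edgeR, as did 348 of all 6113 genes. In DESeq2, 0 of the 9 members and 102 of all genes did.

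Phf20, the gene of the Tudor domain subunit of the NSL complex, leaned opposite ways in the 2 kinds of plate2 wells. In erythroid wells it stood at 59.7 and 55.4 CPM in Mof -/+ libraries, against 26.8 and 38.5 CPM in wild type libraries, or 0.80 ± 0.43 as a log2 fold change (2 libraries per genotype, SE, edgeR adjusted p = 0.880). In other plate2 wells it stood at 53.4 and 78.3 CPM in Mof -/+ libraries, against 90.4 and 119 CPM in wild type libraries, or -0.83 ± 0.34 as a log2 fold change (edgeR adjusted p = 0.486). There 0.687% of all genes were called, 0.0654% higher and 0.622% lower in Mof -/+, and none of the 9 members tested. The groups of 2 libraries did not overlap in either kind of well. How many of all genes separate in this way was not counted, here or for Kat8 and Kansl1. The difference of these effects, a comparison chosen after the values were seen, was 1.62 ± 0.58 (95% interval 0.44 to 2.80, unadjusted p = 0.00691, edgeR adjusted p = 0.503, with 0.262% of all genes called, 0.0164% higher and 0.245% lower), so it did not pass. Both kinds of plate2 wells also differed between genotypes in their makeup. In erythroid wells the 10 erythroid markers other than Car1 summed to 3453 to 3593 CPM in Mof -/+ and 4799 to 4982 CPM in wild type, with all 10 found in each library. With Car1, by which these wells were picked, the 11 markers summed to 6285 to 6613 CPM in Mof -/+ and 6974 to 7140 CPM in wild type. Car1 itself was thus higher in Mof -/+ erythroid wells, against the sum of the other 10. The part of this makeup in the values of Kat8, Kansl1 and Phf20 in erythroid wells was not tested. In other plate2 wells both neutrophil lists and the megakaryocyte list differed. Mature neutrophil markers (8 genes) summed to 39.1 to 691 CPM in Mof -/+ and 3447 to 4772 CPM in wild type, with 4 or 5 and all 8 markers found. Neutrophil and monocyte progenitor markers (5 genes) summed to 5127 to 8953 CPM in Mof -/+ and 226 to 3636 CPM in wild type. Megakaryocyte markers (6 genes) summed to 326 to 332 CPM in Mof -/+ and 95.4 to 169 CPM in wild type. Without wells of at least 10 mature neutrophil transcripts the log2 fold change of Phf20 in other plate2 wells was -0.75 (edgeR adjusted p = 0.687). The part of the progenitor wells and of the megakaryocyte markers was not tested.

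**Figure D3:**
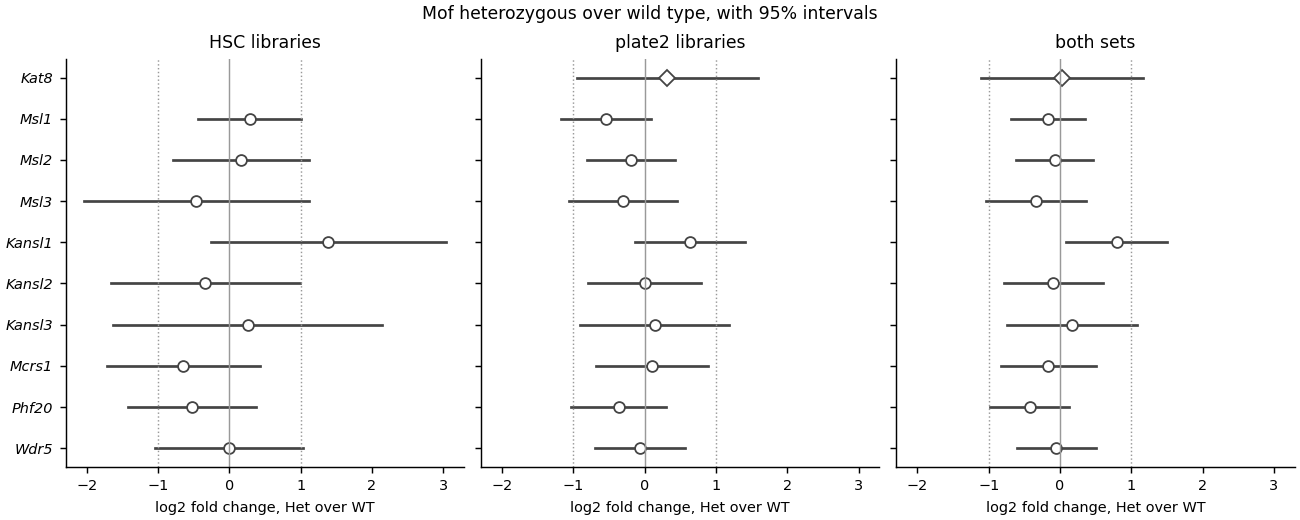
The log2 fold change of Mof -/+ over wild type libraries is drawn on the x axis for each gene in plate2, in HSC and over both sets, with 95% intervals; diamonds are from the fit without the low-count filter, Kat8 is left out in HSC at 3 transcripts per genotype, and dotted lines mark -1 and 1. No gene passed, and over both sets the interval of Kansl1 alone (0.09 to 1.5) leaves out 0.

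The clearest difference among the members was that of Msl1, the MSL scaffold gene, between plate2 and HSC wells. Msl1 stood at 88.8 and 106 CPM in Mof -/+ and 105 and 158 CPM in wild type plate2 libraries, against 299 and 308 CPM in Mof -/+ and 181 and 291 CPM in wild type HSC libraries. The 4 plate2 libraries lay below the 4 HSC libraries in both genotypes. The log2 fold change was -1.06 ± 0.25 (SE, n = 4 libraries per plate set, 95% interval -1.58 to -0.54, edgeR adjusted p = 0.00289), a level 2.09-fold lower as a share of transcripts. Msl1 and Msl3 were the 2 of 9 partner genes called in this comparison, where 34.2% of all 6690 genes passed (17.6% higher and 16.6% lower in plate2). Msl1 kept its call in all 18 alternative settings, with log2 fold changes from -1.39 to -0.88 and adjusted p up to 0.0344. Counted per well instead, Msl1 had 1.17 and 1.57 transcripts in Mof -/+ and 1.19 and 1.49 in wild type plate2 wells, against 1.07 and 0.912 in Mof -/+ and 0.360 and 0.652 in wild type HSC wells. On average more Msl1 transcripts were thus counted in a plate2 well than in an HSC well, at a smaller share of its transcripts. Spike-in counts differed as well, with library medians of 130 to 304 per HSC well against 10.5 to 18.0 per plate2 well. What the counts per well mean for amounts per cell was not tested. With every well thinned to 1000 transcripts, Msl1 was found in 19 of 204 plate2 wells (9.31%, exact 95% interval 5.70% to 14.2%) and in 53 of 232 HSC wells (22.8%, 17.6% to 28.8%).

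Msl1 was lower on average against HSC in both kinds of plate2 wells. In wild type, the higher erythroid value (187 CPM) lay above the lower HSC library (181 CPM). Erythroid wells had 84.1 and 101 CPM in Mof -/+ and 107 and 187 CPM in wild type libraries, a log2 fold change over HSC of -1.16 ± 0.27 (SE, n = 4 each, edgeR adjusted p = 0.00155). Other plate2 wells had 95.4 and 114 CPM in Mof -/+ and 103 and 136 CPM in wild type libraries, a log2 fold change over HSC of -1.02 ± 0.27 (n = 4 each, edgeR adjusted p = 0.00917). That second call was lost without Mof -/+ plate2 library 1 (adjusted p = 0.0697) and at 2000 transcripts per well (adjusted p = 0.0655). Erythroid and other wells differed in Msl1 by -0.16 ± 0.20 (95% interval -0.58 to 0.26, edgeR adjusted p = 0.598), less than the spread between libraries. In GRCm38 annotation (GENCODE vM21) the 3′ end of Msl1 overlaps a transcript model of Casc3, an exon junction complex gene on the same strand, so reads there could be assigned to either gene. Casc3 was itself lower in plate2 than in HSC libraries, by a log2 fold change of -0.95 ± 0.27 (edgeR adjusted p = 0.00851), and its part in the Msl1 result was not tested.

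Msl3, the chromodomain subunit gene on the X chromosome, went the other way, on few HSC transcripts. It stood at 36.5 and 50.1 CPM in Mof -/+ and 51.7 and 44.7 CPM in wild type plate2 libraries, against 20.5 and 24.9 CPM in Mof -/+ and 30.2 and 29.1 CPM in wild type HSC libraries. All plate2 libraries were above all HSC libraries, but the HSC libraries held only 5, 5, 3 and 3 transcripts. The log2 fold change was 1.07 ± 0.41 (SE, n = 4 per plate set, 95% interval 0.21 to 1.92, edgeR adjusted p = 0.0384). The call was lost in 11 of 17 settings, among them DESeq2 (adjusted p = 0.0849). It was also lost without Mof -/+ HSC library 1 (0.124) or 2 (0.0608), wild type HSC library 1 (0.0684) or 2 (0.0633), Mof -/+ plate2 library 2 (0.138) or wild type plate2 library 1 (0.0903), these being edgeR adjusted p. Msl2, the ubiquitin ligase gene, stood at 78.1 to 122 CPM in plate2 and 80.6 to 99.5 CPM in HSC libraries, and its log2 fold change of 0.35 ± 0.27 (95% interval -0.21 to 0.91) did not pass.

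Of the NSL genes none was called between plate2 and HSC as a whole. Their log2 fold changes were 0.72 ± 0.37 for Kansl1, 0.37 ± 0.37 for Kansl2, 0.32 ± 0.48 for Kansl3, -0.37 ± 0.33 for Mcrs1, -0.32 ± 0.27 for Phf20 and 0.43 ± 0.29 for Wdr5 (SE, n = 4 per plate set, edgeR adjusted p 0.123 to 0.629). Kansl1 passed only when Mof -/+ HSC library 2 was left out (log2 fold change 1.37, edgeR adjusted p = 0.0117). Kat8, in the fit without the filter, stood at 0.89 ± 0.71 (95% interval -0.50 to 2.29), on 35 plate2 against 6 HSC transcripts. The median over the 9 genes was 0.35, against 0.04 over all genes.

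Between erythroid and other plate2 wells of the same libraries, Phf20 fell and Wdr5 stood at the threshold. Phf20 had 59.7 and 55.4 CPM in Mof -/+ and 26.8 and 38.5 CPM in wild type erythroid wells, against 53.4 and 78.3 CPM in Mof -/+ and 90.4 and 119 CPM in wild type other wells. It was lower in erythroid wells in 3 of 4 libraries and higher in Mof -/+ library 1. With the library as a block the log2 fold change was -1.06 ± 0.32 (SE, n = 4 libraries, 95% interval -1.74 to -0.37, edgeR adjusted p = 0.0224). Phf20 was the only 1 of 8 members tested to pass, where 26% of 4855 genes did (10.3% higher and 15.7% lower in erythroid wells). The wild type libraries carried most of it: without wild type library 1 the value was -0.76 (edgeR adjusted p = 0.167), without wild type library 2 it was -0.81 (adjusted p = 0.110), and DESeq2 gave an adjusted p of 0.121.

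Wdr5 had 106 and 93.1 CPM in Mof -/+ and 92.3 and 99.0 CPM in wild type erythroid wells, against 45.8 and 49.8 CPM in Mof -/+ and 55.2 and 61.7 CPM in wild type other wells. Every erythroid value was above every other-well value. The log2 fold change was 0.67 ± 0.24 (SE, n = 4 libraries, 95% interval 0.15 to 1.19), and its edgeR adjusted p of 0.05002 lay just above the threshold. It passed with RLE size factors (adjusted p = 0.0484), without the low-count filter (0.0338), at 1 or more Car1 transcripts (0.0360), without the library block (0.0431) and with whole molecular identifiers (0.0499). It did not pass in the other 9 of 14 alternatives, and the log2 fold change went as low as 0.46. No leave-out made Wdr5 pass (edgeR adjusted p 0.0515 to 0.190). Its paralog Wdr5b had 12 transcripts in all. Depth differed as well: erythroid wells were deeper than other wells in 3 of 4 libraries (library medians of 20364 and 14034 transcripts in Mof -/+ and 13997 in wild type library 1, against 6938, 9686 and 8437) and shallower in wild type library 2 (7507 against 8635). After thinning Wdr5 was found in 5.06% of erythroid and 4.80% of other wells, on 4 and 6 wells.

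**Figure D4:**
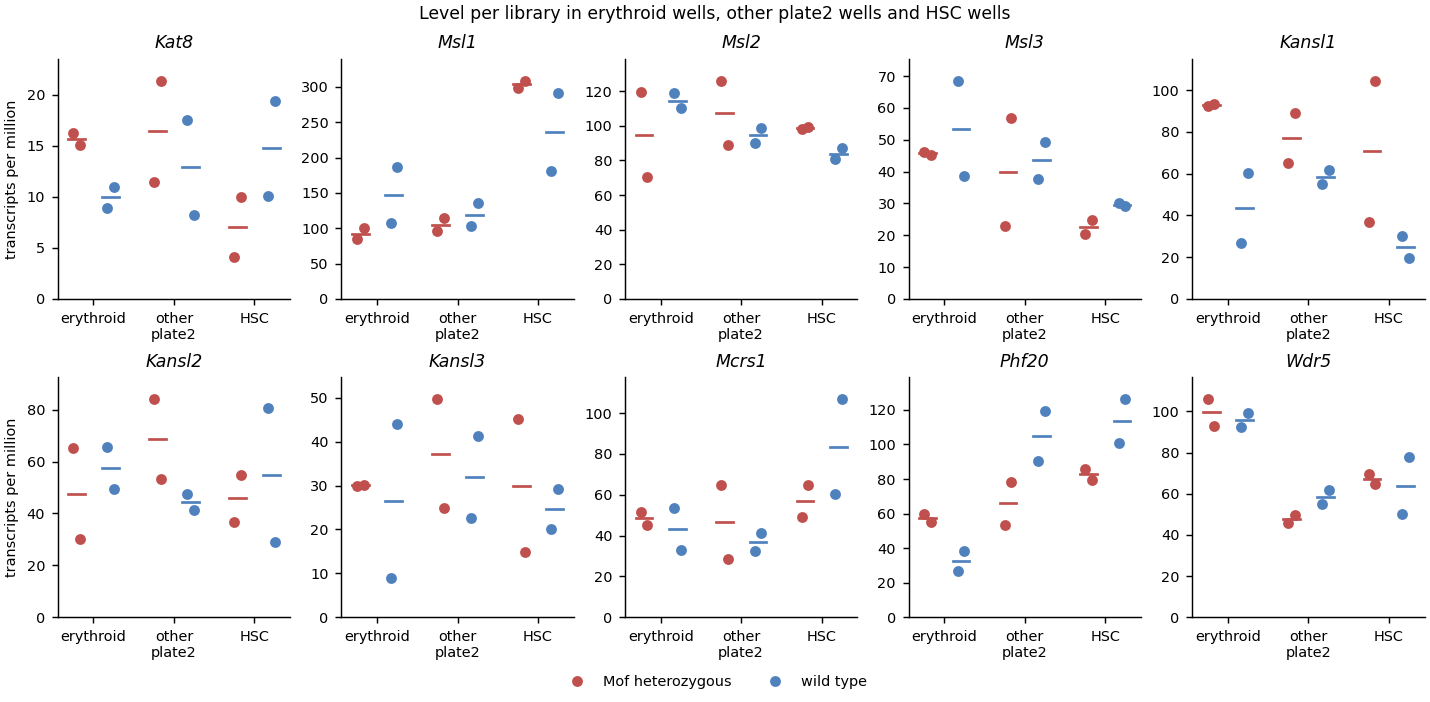
Each panel shows a gene, with the level of each library on the y axis in CPM, in erythroid wells, other plate2 wells and HSC wells from left to right; points are libraries, bars are means of 2, Mof -/+ is red and wild type blue. Mean Msl1 is lower in both kinds of plate2 wells than in HSC wells. Its higher wild type erythroid value (187 CPM) lies above its lower wild type HSC value (181 CPM). Wdr5 is higher in erythroid than in other wells, and Phf20 is lowest in wild type erythroid wells.

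Set against HSC wells, erythroid wells differed in 3 of 8 members tested (46.1% of 5216 genes passed, 21.6% higher and 24.5% lower in erythroid wells). Msl1 is given above. Msl3 stood at 46.1 and 45.3 CPM in Mof -/+ and 68.5 and 38.5 CPM in wild type erythroid wells, a log2 fold change over HSC of 1.07 ± 0.45 (SE, n = 4 each, edgeR adjusted p = 0.0432). Phf20 fell by 0.93 on the log2 scale (SE 0.34, n = 4 each, edgeR adjusted p = 0.0271), against 86.0 and 79.6 CPM in Mof -/+ and 101 and 126.1 CPM in wild type HSC libraries. Both calls were fragile, and Msl3 lost its call in 11 of 15 settings and Phf20 in 8 of 18, the highest adjusted p being 0.107 and 0.181. Wdr5 stood at 0.66 ± 0.30 (edgeR adjusted p = 0.0732), and it passed without the 15 off-type HSC wells (log2 fold change 0.97, adjusted p = 0.0149) and with all barcodes (0.85, adjusted p = 0.0154). It did not pass in the other 16 of 18 alternatives, and its log2 fold change went as low as 0.43. Other plate2 wells differed from HSC wells only in Msl1 among 9 members tested, where 23% of 5448 genes passed (12.5% higher and 10.5% lower in other plate2 wells). Phf20 stood there at 0.04 ± 0.31 and Wdr5 at -0.07 ± 0.34.

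**Figure D5:**
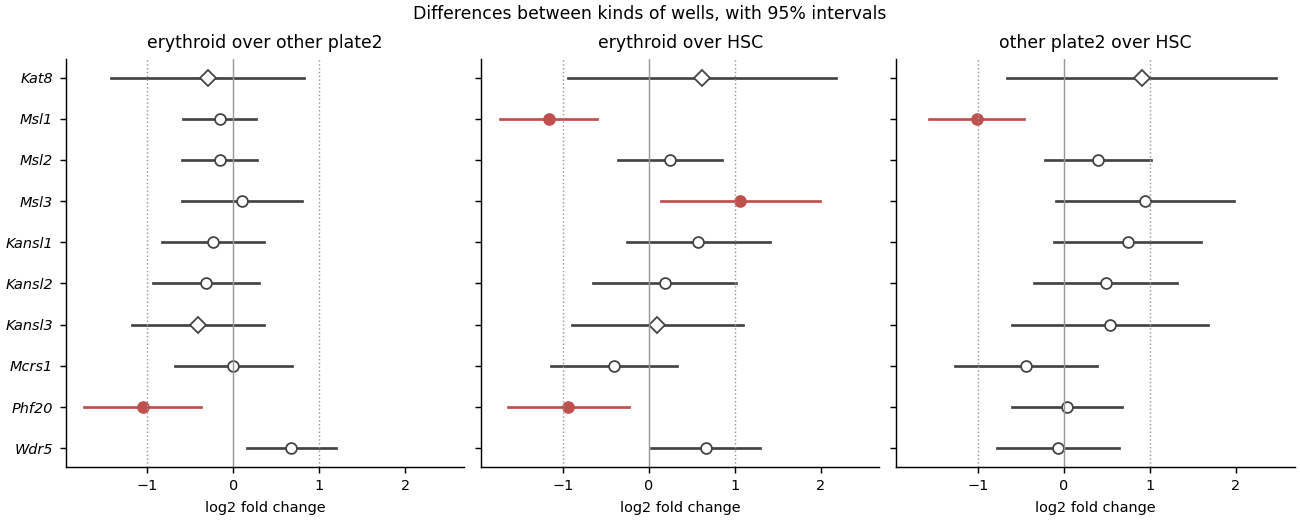
The log2 fold change of each gene is drawn on the x axis with its 95% interval for erythroid over other plate2 wells, erythroid over HSC wells and other plate2 over HSC wells; filled red points passed an adjusted p under 0.05, and diamonds are from the fit without the low-count filter. Msl1 lies near -1 in both comparisons with HSC, and Phf20 lies near -1 in both comparisons of erythroid wells.

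The list of 20 related genes, which holds further NSL and MSL proteins, paralogs, the SET1 and MLL methyltransferase subunits that share WDR5 and the deacetylases Sirt1 and Sirt2, was read the same way. None of 17 tested passed between genotypes in plate2, in HSC or over both sets. Between plate2 and HSC 3 of 17 rose and 3 fell, where 17.6% of all genes were higher and 16.6% lower in plate2, shares near those of the list. The RNA helicase gene Dhx9, whose Drosophila relative MLE works with the MSL complex, averaged 169 ± 3.96 CPM in plate2 and 75.4 ± 30.9 CPM in HSC libraries (SD, n = 4 each; log2 fold change 1.39 ± 0.30, edgeR adjusted p = 0.000900). Hcfc1, a chromatin-bound NSL partner, averaged 135 ± 19.9 CPM in plate2 and 313 ± 115 CPM in HSC libraries (SD, n = 4 each; log2 fold change -0.97 ± 0.24, edgeR adjusted p = 0.00346). Without the 15 off-type HSC wells the log2 fold change of Hcfc1 was -0.54 and the call was lost (edgeR adjusted p = 0.0664). Cxxc1, the CpG-binding subunit of SET1 complexes, and Kmt2a, the MLL1 methyltransferase, fell by 0.77 and 0.66 on the log2 scale (SE 0.25 and 0.23, edgeR adjusted p = 0.0201 and 0.0343). Sirt2 and the methyltransferase subunit gene Dpy30 rose by 1.08 and 0.73 (SE 0.43 and 0.28, edgeR adjusted p = 0.0448 and 0.0442). Dhx9 kept its call in all 17 settings run, and the other 5 lost theirs in 2 to 13. Between erythroid and other plate2 wells 1 of 16 rose and 1 fell, where 10.3% of all genes were higher and 15.7% lower in erythroid wells. The SET1 methyltransferase gene Setd1a averaged 52.5 ± 14.4 CPM in erythroid and 19.5 ± 8.78 CPM in other wells (SD, n = 4 each; log2 fold change 1.22 ± 0.39, edgeR adjusted p = 0.0235). Its call was lost with DESeq2 (adjusted p = 0.177), without Mof -/+ library 1 (0.102) and at 10 or more Car1 transcripts (0.0572). Kmt2a averaged 260 ± 58.1 CPM in erythroid and 338 ± 96.5 CPM in other wells (log2 fold change -0.57 ± 0.16, edgeR adjusted p = 0.0164) and was lower in erythroid wells of each of the 4 libraries. Its call was lost in 5 of 14 settings, namely DESeq2 (adjusted p = 0.122), no low-count filter (0.162), no library block (0.0671) and without wild type library 1 (0.0555) or 2 (0.0790).

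The genes whose level over the 8 libraries was most like that of Kat8, by Pearson correlation of log2(CPM + 10) over 6283 genes, were Rrp15 (0.938), Med8 (0.933) and BC005561 (0.918), and 4 genes reached 0.9. Those most like Msl1 were Camk1 (0.992), Runx2 (0.987) and Rnf150 (0.982), among 186 genes that reached 0.9. The 8 points share 2 plate sets that differ in depth and in kinds of cells, so these values describe the libraries only.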

How the data were processed

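RNA was measured with CEL-Seq2 in 8 libraries, per the labels' protocols. The deposited values are expected counts per gene and barcode: the authors corrected whole molecular identifier counts for collisions among 4096 identifiers, per the values. BWA 0.6.2-r126 and mm10 are named per the submitters' processing notes, while no source used here names the annotation or the counting tool. Spike-in rows (70) were left out of the gene counts, and 0% of rows named no gene. The 10 members and all lists were chosen with earlier results of these data known.

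Counts were summed per library, or per library and kind of well, over wells of at least 1000 transcripts, and rounded. The test was edgeR 4.0.16 under R 4.3.3 (TMM scaling, filterByExpr, two-sided quasi-likelihood test, Benjamini-Hochberg over all genes tested). The libraries of all groups shared 1 spread per gene, a term for the plate set was used over both sets, and genotype was a term against HSC. Where both kinds of plate2 wells enter a genotype fit, their sums come from the same libraries and were treated as independent. Genes passed at an adjusted p under 0.05. SE and 95% intervals are Wald values of that fit. Kat8 was under the filter, as was Kansl3 between erythroid and other plate2 wells and between erythroid and HSC wells. A fit without the filter is quoted for Kat8 and drawn for Kansl3. The scripts were tested on simulated data. Thinning used fixed seeds. No doublet caller was run on the sorted wells. Named genes were the members, listed genes that passed, and the 3 genes most like Kat8 and Msl1. DESeq2 1.42.0, RLE size factors, other filters and leaving out each library were alternatives. Python 3.11.15, numpy 2.4.6, pandas 2.3.3, scipy 1.17.1 and matplotlib 3.10.9 were used. HSC replicate numbers come from the labels, and plate2 numbers only name libraries.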

Additional observations from a re-analysis of the deposited data

Results flagged for a closer look

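Transcripts of the 10 genes also lay in barcodes that were not kept as wells. The 1100 barcodes under 1000 transcripts held 214 of them, a signal in data that the comparisons did not use, at 785 CPM, against 638 in the 417 kept wells of each library's own barcode set. Kat8 had 0 transcripts in these 1100 barcodes, which allows up to 3 by counting error, and all 41 of its transcripts lay in the kept wells of the own sets. A further 19 kept barcodes of the other set held 26 transcripts of the 10 genes.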

How the results depend on the processing

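No member tested passed between genotypes under the alternatives run, but wells thinned to 1000 transcripts left 1 member tested in plate2, HSC, both sets and their difference and 0 in either kind of plate2 well, and fits of the 4 HSC libraries alone left 4, so these say nothing of the other members. HSC libraries of the same replicate number did not deviate alike (correlation of deviations -0.10 over 6690 genes), but 2 libraries per genotype cannot show that they are unpaired. With the 4 HSC libraries and a replicate block 0 members and 4 genes passed. Against 2 members called between plate2 and HSC, 1 passed with DESeq2, without the low-count filter, at 2000 transcripts per well, thinned to 1000 transcripts or with the barcode set as a term, and 1 to 2 when libraries were left out in turn. Between erythroid and other wells (1 called), 0 passed with DESeq2, and 2 with RLE size factors, no filter, whole identifiers, 1 or more Car1 transcripts or no library block. In that order, 1262 of 4855, 2060 of 19365, 1267 of 4855, 1194 of 4551 and 1188 of 4855 of all genes passed with them. Over leave-outs 0 to 1 passed, and thinned, 0 members could be tested. Between erythroid and HSC wells (3 of 8 tested called), 1 of 8 passed with DESeq2, as did 2074 of all 5216 genes. Without the filter 1 of 10 passed (3104 of 16735 genes), and at 2000 transcripts 1 of 7 (1855 of 4963). Thinned, 1 of 1 passed (384 of 698 genes), and with all barcodes 4 of 9 (2969 of 5666). Over leave-outs 1 to 3 passed. Between other plate2 and HSC wells (1 called), 0 passed at 2000 transcripts or thinned, and 0 to 2 over leave-outs. In the thinned fits between kinds of wells at most 1 member (Msl1) and 228 to 967 genes were tested; the other causes were not tested. Kat8 was found in 1.83% of wells when thinned and in 2.34% of all barcodes, and in 6.41% to 9.51% over leave-outs. Directions reversed for Msl1 between genotypes in plate2 when thinned (0.0018, edgeR adjusted p = 0.997) and for Kat8 over both sets without Mof -/+ plate2 library 2 (-0.19) or wild type plate2 library 2 (-0.16), within -0.19 to 0.23 over leave-outs. Counts of all genes called moved most when wells were thinned, to 445 from 2289 between plate2 and HSC, 49 from 1262 between erythroid and other wells, 384 from 2402 between erythroid and HSC and 276 from 1253 between other plate2 and HSC. At 2000 transcripts they were 1521 and 802 in the first and last of these, and between erythroid and other wells 575 with DESeq2, 2060 without the filter and 707 without wild type library 1. Between genotypes leave-outs gave 0 to 60 in plate2 (37), 0 to 38 in HSC (1), 1 to 42 over both sets (9), 0 to 37 for their difference (0), 9 to 24 in erythroid (5) and 15 to 151 in other wells (42), and no filter gave 75, 40, 64, 21, 26 and 90. The difference between kinds of wells (16) had 13 to 65 over leave-outs. Leaving out mature neutrophil wells left 12 in plate2 and 0 in other wells. Depth limits all 10 genes.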
